A study of Mus musculus with 4 samples.

Results

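The sites described here are Smad1 ChIP-seq intervals that lie inside gene bodies and hold a run of adenines. Of the 10466 intervals found in DMSO-treated embryoid bodies (EBs) by both peak callers, MACS and QESEQ, 4189 (40.02%) met the rule and are called members below. A member overlapped no annotated tRNA gene and held a run of at least 7 A on one of its strands, which reads as T on the other. Its centre lay inside a GENCODE M21 gene of any type and more than 1 kb from every annotated transcript start. The steps of the rule took away 214 intervals at tRNA genes, leaving 9338 others that held a run, of which 4827 were centred in a gene. Gene-body sites of any sequence numbered 4528, so 92.5% of them held a run, and 339 did not.

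Smad1 ChIP-seq was done on EBs of the GFP-Bry mouse ES cell line, an embryonic stem cell line with a GFP reporter at Brachyury, whose labels give the strain C57BL/6. The EBs were reaggregated at day 3, kept for 24 h with DMSO or with 10 µM IWR-1, an inhibitor of Wnt signalling, and collected at day 4. Each treatment had 1 library of Smad1 ChIP and 1 of input chromatin, so no value below has a replicate. The peak lists give no read counts, which leaves the depth at a site unknown. EBs hold several cell types, and fewer cells with Smad1 at a site cannot be told apart from less Smad1 per cell.

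The labels of the lists and their contents did not match. The common list and a MACS list sit with the DMSO input, and the QESEQ list behind the common sites sits with the IWR-1 input. All 10466 common sites were intervals of that QESEQ list, which was read as DMSO by its coordinates. QESEQ intervals labelled as IWR-1 are taken as such. A second list from MACS is named for IWR-1 but sits with the DMSO ChIP sample. It is read as IWR-1 from its name and because another list holds the DMSO peaks, which no value here can settle, so it is given after QESEQ. Where the text speaks of both IWR-1 lists, it rests on that reading.

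Smad1 is a transcription factor that receptors for bone morphogenetic proteins (BMPs) phosphorylate, after which it enters the nucleus with Smad4 and binds DNA through short GC-rich or GTCT-containing sequences. In differentiating EBs, BMP and Wnt signals together pattern mesoderm into blood, endothelium and heart. Long adenine runs in mouse introns are common as the tails of retrotransposed elements such as the B1 family of short interspersed elements, which end in A on the strand of the element, and genome sequence files write such repeats in lower case (soft-masked).

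The sequences start with the members of scores 994 and 597, both with a call in both IWR-1 lists, whose runs of 9 and 13 bases are short for members. The member ranked between them, with a score of 736, has a run of 34 bases and its sequence is not shown. The score is the one MACS gives a peak, −10 times the base-10 logarithm of its p-value, and the lowest score among members was 50.0. Each sequence holds the longest run of a site and the bases around it, from mm10 (GRCm38), written 5′ to 3′ on the strand that carries the A, with the run in capitals. Gm44511 is shown from chr6:128802966-128803066 (plus strand) and Dsp from chr13:38155397-38155497 (minus strand).
Gm44511: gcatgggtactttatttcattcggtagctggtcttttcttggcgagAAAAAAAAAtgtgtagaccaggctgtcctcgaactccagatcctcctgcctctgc
Dsp: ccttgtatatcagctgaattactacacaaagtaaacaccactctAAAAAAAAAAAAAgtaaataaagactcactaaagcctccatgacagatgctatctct

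Sorcs1, chr19:50659375-50659475, and Grm7, chr6:110649019-110649119, both on the minus strand, are shown for their run length, and Gm34276, chr13:44555109-44555209 on the plus strand, because its site had the highest score among members with no call in either IWR-1 list.
Sorcs1: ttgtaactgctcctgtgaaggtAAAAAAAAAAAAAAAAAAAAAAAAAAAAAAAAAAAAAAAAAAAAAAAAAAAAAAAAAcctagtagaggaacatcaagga
Grm7: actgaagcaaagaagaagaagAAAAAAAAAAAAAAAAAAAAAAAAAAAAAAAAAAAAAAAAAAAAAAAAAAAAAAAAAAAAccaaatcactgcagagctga
Gm34276: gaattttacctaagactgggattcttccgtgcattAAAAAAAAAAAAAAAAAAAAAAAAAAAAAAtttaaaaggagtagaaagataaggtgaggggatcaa

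The other 4 are sites from the gene lists for BMP signalling, heart, primitive streak and pluripotency. They lie at chr1:59860312-59860412 (Bmpr2, minus strand), chr9:24745299-24745399 (Tbx20, plus strand), chr2:167539720-167539820 (Snai1, minus strand) and chr12:86437466-86437566 (Esrrb, plus strand). In Bmpr2 and Esrrb the bases 3′ of the run were mainly G and A, a feature that is counted for all members below.
Bmpr2: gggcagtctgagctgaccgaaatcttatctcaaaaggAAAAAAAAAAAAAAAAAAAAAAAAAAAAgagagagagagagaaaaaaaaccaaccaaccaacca
Tbx20: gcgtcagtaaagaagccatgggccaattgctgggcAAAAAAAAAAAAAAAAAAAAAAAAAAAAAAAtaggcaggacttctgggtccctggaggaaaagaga
Snai1: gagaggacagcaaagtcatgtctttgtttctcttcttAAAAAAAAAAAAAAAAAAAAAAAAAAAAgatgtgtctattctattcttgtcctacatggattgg
Esrrb: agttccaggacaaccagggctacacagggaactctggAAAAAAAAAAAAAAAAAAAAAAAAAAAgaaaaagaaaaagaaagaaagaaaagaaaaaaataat

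Members lay in introns. Of the 4189, 3970 (94.8%, 95% exact binomial interval 94.1 to 95.4%) were centred where no transcript of the gene has an exon, 115 (2.75%) in a 3′ UTR, 70 (1.67%) in an exon of a noncoding transcript, 33 (0.788%) in coding sequence and 1 in a 5′ UTR. Intervals of this kind cover counting error over sites only, and sites are not replicates. Introns make up 92.3% of gene-body sequence, so most of this share was that of the genome. As a nearer measure, windows of the same width were taken 2 kb to either side of each member, and 7364 of 8378 were kept because they met the gene-body rule and touched no common site. Of these windows 93.4% were intronic, 1.39 percentage points fewer than members (95% Newcombe interval of the difference 0.485 to 2.25). Coding sequence was less frequent at members, by −1.49 points (−1.92 to −1.05), and the share in 3′ UTRs differed by 0.518 points, with an interval that reached from −0.0623 to 1.14.

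Most members were several kb from a transcript start. The median distance to the nearest start was 8770 bp and that to the nearest exon edge 2983 bp. The windows had 10485 and 3744 bp, but windows close to a start were not kept, so these distances are not like for like. In the main transcript of the gene, the one marked as principal in the annotation, 3801 members (90.7%) lay inside its bounds. Among the 3607 of these in one of its introns, 1110 (30.8%) were in intron 1. Nearer the 5′ end of the gene than its 3′ end were 53.1% of members (51.6 to 54.6%) and 52.7% of the windows, most of which share the gene of their member. A second annotation, RefSeq, placed a transcript start within 1 kb of 99 members (2.36%), among them the second Gm44511 site and the Dnah2 site named further on.

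Most members lay in protein-coding genes. These held 3688 (88.0%, 87 to 89.0%), and long noncoding genes of all types held 453 (10.8%). The windows, mostly in the same genes, had 88.4% and 10.7%. Within the latter, 299 members were in lincRNA genes, 82 in genes antisense to others and 66 in processed transcripts. Pseudogenes held 41.

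Members lay in long genes. Counted once per member, over genes of all types, the median length of the gene was 100513 bp. Counted once per gene, that of all protein-coding genes was 17403 bp, so these medians are not like for like. Gene-body sites without a run had 92593 bp, so long genes were shared by gene-body sites of both kinds. At least 1 member lay in 2826 of 21951 protein-coding genes (12.9%). Across 5 equal groups of protein-coding genes ordered by length, that share was 0.387, 2.53, 7.68, 15.4 and 38.4%, with median lengths of 2.74, 8.06, 17.4, 36.4 and 110 kb. These shares are per gene and are not corrected for the greater sequence of longer genes. Members were spread thinly over 3174 genes, of which 2512 held 1 and 463 held 2.

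The X chromosome held few members. On autosomes there were 4165 members, or 3.98 per Mb of gene body, and on X there were 23, or 0.484 per Mb, while Y held 1. Neither these rates nor the shares below are corrected for the number of copies of a chromosome per cell, which was not measured. Gene-body sites without a run had a rate of 0.322 per Mb on autosomes and 0.0420 per Mb on X, the latter from 2 sites. Of gene-body runs of at least 20 A, 3566 of 28916 on autosomes (12.3%) lay in a common site, against 18 of 967 on X (1.86%). The gap depended on the caller and on run length. In the DMSO QESEQ list the shares were 25.5% on autosomes and 2.59% on X, and in the DMSO MACS list 18.0% and 8.17%. For runs of 40 or more the DMSO MACS list held 60.7% on autosomes and 69.2% of the 52 on X, and the second MACS list 39.1% and 36.5%. The common sites still held fewer on X at that length, 11.5% against 29.1%, as did the QESEQ lists, with 15.4% against 36.3% in DMSO and 1.92% against 25.8% with IWR-1. None of the 23 members on X had a call in either IWR-1 list, which with 23 sites allows a share of up to 14.8%.

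The rule asked for 7 adenines, and members held many more. The longest run of a member had a median of 26 bases, with 5% of members at 12 or fewer, 5% at 41 or more, and a maximum of 60. Windows that held a run by the same measure, 2241 of 7364 (30.4%), had a median of 8 bases and a maximum of 45. Runs of at least 20 bases were present in 3502 members (83.6%) and in 91 of the run-bearing windows (4.06%). Common sites with a run outside gene bodies had medians of 26 bases near transcript starts and 27 bases between genes, so the medians were close. Runs of at least 20 were present in 78.8% of the sites near transcript starts. Runs of 40 or more were the longest in 464 of 4225 sites between genes and in 289 of 4189 members. Most members, 2577 (61.5%), held a single run of at least 7, and 421 (10.1%) held runs on both strands.

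**Figure D1:**
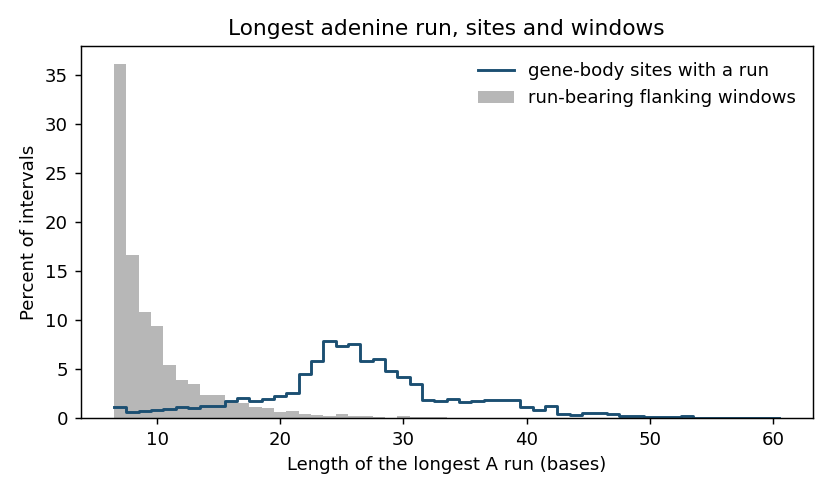
Length of the longest adenine run (bases, horizontal axis) as a share of sites (percent, vertical axis) for members and for run-bearing windows 2 kb away. Members centre on a median of 26 bases, and windows on a median of 8.

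Counting every adenine run in gene bodies of the genome gives the same picture from the other side. Of 666073 gene-body runs of 7 to 9 bases, 0.261% lay wholly inside a common DMSO site. The share was 0.423% for 10 to 14 bases and 1.09% for 15 to 19 bases. It was 6.45% for 20 to 24, 14.7% for 25 to 29, 20.4% for 30 to 34, 27.5% for 35 to 39 and 27.8% for the 1030 runs of 40 or more. The rise was steep between 15 and 30 bases and small above 35. The DMSO lists behind the common sites parted at the top. From 35 to 39 bases to 40 or more, the share went from 41.1 to 61.1% in the MACS list of 15927 peaks and from 40.4 to 34.8% in the QESEQ list of 26070 intervals.

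The IWR-1 lists had the same order of run lengths. In the IWR-1 QESEQ list, of 16261 intervals, the share of gene-body runs held rose from 0.401% at 7 to 9 bases to 16.3% at 25 to 29 and 24.2% at 40 or more. In the second MACS list, of 7815 peaks, it rose from 0.157% through 6.75% to 38.7%. These shares depend on the size of each list and are not compared between lists. Applied to each list on its own, the rule found a run in 91.3% of gene-body peaks of the DMSO MACS list and 80.5% of those of the DMSO QESEQ list. The IWR-1 QESEQ list had 71.8% and the second MACS list 78.9%, with median longest runs of 24 and 27 bases. Gene-body intervals called with IWR-1 thus held long runs too.

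**Figure D2:**
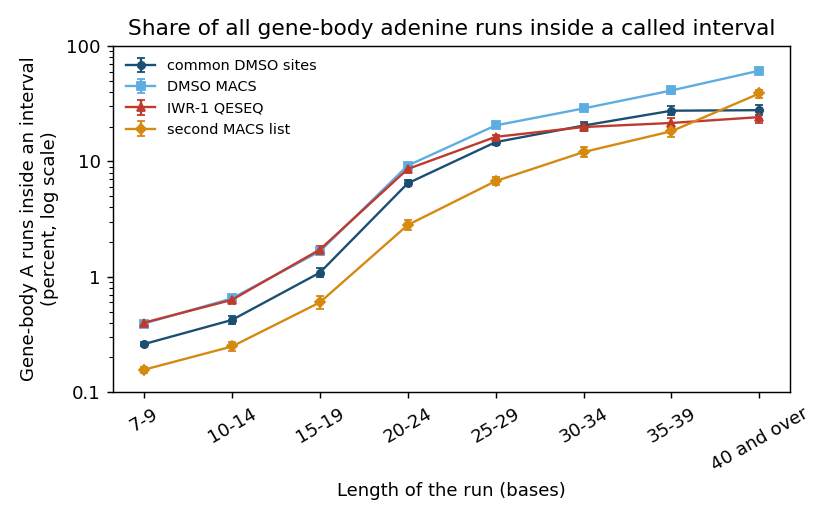
Percent of all gene-body adenine runs that lie inside an interval of each list (vertical axis, log scale) by length of the run in bases (horizontal axis). Bars are 95% exact binomial intervals. In the common DMSO sites the share goes from 0.261% at 7 to 9 bases to 27.8% at 40 or more.

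Members held more soft-masked sequence than windows at large. The run itself was fully masked at 4180 members (99.8%), which any long run would be, since 100% of gene-body runs of 15 bases or more in the genome had a masked centre. The median soft-masked share of the whole interval was 39.9%, against 31.4% in run-bearing windows, 21.6% in all windows and 16.6% at gene-body sites without a run. With the bases of the runs left out, it was 35% at members, 29.9% in run-bearing windows and 20.8% in all windows. Intergenic sites with a run had 43.7% over the whole interval.

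The masking was one-sided on average. Over 100 bp to either side of the run, on the strand of the A, a mean of 58.3% of bases were masked on the 5′ side and 38.4% on the 3′ side, against 46.4% and 36.5% in run-bearing windows. The 91 windows with a run of at least 20 bases had 71.2% and 44.8%, so long runs away from the members were one-sided too. At least 50% of the 5′ side was masked in 2241 members (53.5%), and at least 50% of the 3′ side in 1295 (30.9%). The 5′ side alone passed that level in 1362 members (32.5%), the 3′ side alone in 416 (9.93%), both in 879 (21%) and neither in 1532 (36.6%). Of the 91 windows with a long run, 21 (23.1%) passed it on neither side. The B1 sequences described next divided the members: those that held one had 88.7% masked on the 5′ side and 44.7% on the 3′ side, and the 2603 without had 39.8% and 34.6%, with 54.7% of them passing on neither side. Where a single side passed, it was thus mostly the 5′ side, while the most frequent of the 4 arrangements was neither.

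**Figure D3:**
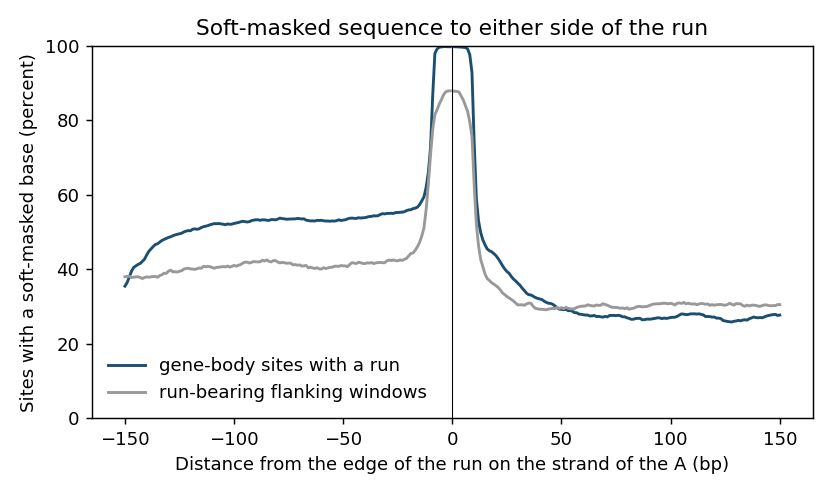
Percent of intervals with a soft-masked base (vertical axis) by distance from the end of the run in bp (horizontal axis, 5′ to 3′ on the strand of the A) for members and run-bearing windows. At 100 bp on the 5′ side it is 52.3% for members and 41.1% for windows, and at 50 bp on the 3′ side 29.2% and 29.7%.

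Sequences of the B1 element were present in a minority of members, mostly in the same orientation. GAGTTCNAG, found within B1, was present in 1419 members (33.9%) and CCAGCCTGG, also within B1, in 1018 (24.3%), with 8.89% and 6.12% of windows. Either was present in 1586 members (37.9%), which was 26.6 points above all windows (24.9 to 28.2) and 19.6 points above run-bearing windows (17.4 to 21.7). Where GAGTTCNAG matched once in an interval, it lay on the strand of the A in 93.1% of 771 members and on the 5′ side of the run in 86.8%. For CCAGCCTGG the shares were 94.3% and 88.2% of 984. The run lay 3′ of the B1 sequence on the same strand, which is the place of the tail, in 84.0% and 85.9% of these members. Intervals with several matches were not measured.

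Among long runs, B1 sequences did not separate members from windows. Among members with a run of at least 20 bases, 38.6% held a B1 sequence, and among the 91 windows with such a run 42.9% did, a difference of −4.25 points with an interval from −14.6 to 5.56. Intergenic sites with a run had 34.1%, which was 3.73 points below members (1.68 to 5.78). Of the 687 members with a shorter run, 34.1% held a B1 sequence.

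Purines were frequent after the run. In the 30 bases on its 3′ side, 63.1% of bases at members were purines (A or G), against 54.3% on the 5′ side. At least 90% purines stood on the 3′ side in 543 members (13.0%), against 44 of 2241 run-bearing windows (1.96%) and 64 members on the 5′ side (1.53%). Among runs of at least 20 bases the difference from windows was 9.02 points (3.47 to 11.0), although only 2 of 91 such windows count on the other side. Intergenic sites with a run had the feature as well, in 591 of 4225 (14%), and members differed from these by −1.03 points (−2.49 to 0.434). The printed site in Esrrb has such a stretch.

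The bases that bordered the run were also uneven. The base just 5′ of it was C in 62.4% of members and in 25.5% of run-bearing windows, and the base just 3′ was G in 67.3% and 34.5%. In windows with a run of at least 20 these shares were 61.5% and 56.0%. A C before the run was found in 75.5% of members with a B1 sequence and 54.4% of the others.

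Intervals were centred near the run. The rule asked for a run anywhere in the interval, whose median width was 426 bp, yet the absolute distance from the centre of the run to the centre of the interval had a median of 52.5 bp, against 107.5 bp in run-bearing windows of the same widths. Within 50 bp lay 48.5% of members and 24.6% of windows. Measured along the strand of the A, the interval centre lay on the 3′ side of the run in 2838 members (67.7%), with a median offset of 31 bp, while windows had 49.0% and −5.5 bp. The difference in that share was 18.8 points (16.3 to 21.3). The offset differed by the strand of the genome. At the 2172 members whose A is on the plus strand of mm10 the median was 6 bp, with 54.4% on the 3′ side, and at the 2017 whose A is on the minus strand it was 57 bp, with 82.1%. The median of 31 bp is taken over both strands together, and the reason for the difference between them was not tested.

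Other calls at the same sites had an offset in the same direction. The centres of the MACS peaks behind the members lay 3′ of the run in 77.3%, with a median of 38.5 bp. The IWR-1 QESEQ intervals at members lay 3′ of it in 72.1%, with a median of 45 bp, and the peaks of the second MACS list in 84.4%, with a median of 55 bp. Members with and without a B1 sequence had medians of 30.3 and 31.5 bp, and promoter and intergenic sites with a run 31.8 and 31 bp.

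**Figure D4:**
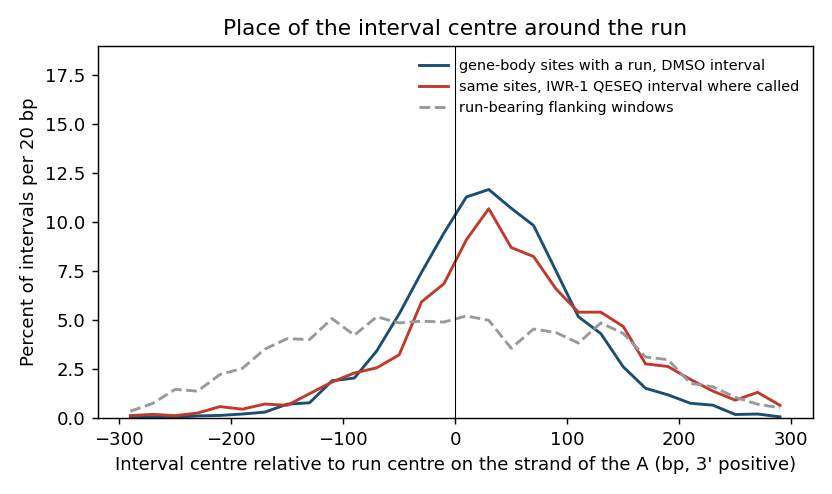
Offset of the interval centre from the run centre in bp (horizontal axis, 3′ of the run positive, on the strand of the A) as a share of sites (percent, vertical axis) for members and run-bearing windows. Members have a median of 31 bp, and windows of −5.5 bp.

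The A of the run was more often on the antisense strand of the gene. Of the 4035 members centred in genes of a single strand, 1596 (39.6%, 38.0 to 41.1%) had the A on the sense strand, the one that reads like the transcript, and 154 members lay in genes of both strands and were left out. Run-bearing windows had 43.5%, and the difference, members minus windows, was −3.93 points (−6.50 to −1.36). All gene-body runs of at least 20 bases in the genome had 40.1%, and those inside common sites 40.05%. The strand share of members was therefore close to that of long runs in genes at large.

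The bias was found in protein-coding genes. There 38.3% of members had the A on the sense strand (36.7 to 39.9%), against 49.1% in long noncoding genes (44.4 to 53.9%), a difference of −10.8 points (−15.7 to −5.91). Introns had 39.6%, 3′ UTRs 39.1% of 110, coding exons 4 of 31 and noncoding exons 35 of 66. Members called by QESEQ with IWR-1 had 38.5% and the rest 40.2%, and that difference, −1.71 points, had an interval that held 0 (−4.83 to 1.44).

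Taken as a group, Smad sequences were not more frequent at members than 2 kb away. Searched on both strands over the whole interval, GGAGCC was present in 15.5% of members and 17.8% of windows, CAGACA in 32.7% and 35.3%, and GGCGCC in 1.17% and 1.07%. The palindrome GTCTAGAC was present in 24 members (0.573%) and 16 windows (0.217%), a difference of 0.356 points (0.124 to 0.646). Any of these was present in 43.2% of members and 46.4% of windows, −3.19 points (−5.07 to −1.30). The search took in the bases of the runs, which cannot hold a whole match and were longer at members than in windows. The shares are not corrected for this, so part of a deficit can come from the rule. The name Smad1 site rests on the antibody and the peak calls. What a match or its absence means for binding of the protein was not tested.

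Sequences of other factors were likewise no more frequent. CTTTGAT, bound by TCF and LEF factors, was present in 7.26% of members and 7.92% of windows, AGATAA, bound by GATA factors, in 21% and 25.0%, and TGACTCA, bound by AP-1, in 7.02% and 7.56%. The share for AGATAA was lower at members by −4.03 points (−5.59 to −2.43), and the intervals for CTTTGAT and TGACTCA held 0. The bases of the runs were not taken out of this search either. Members were also slightly poorer in G and C than their windows, with medians of 41.2% and 42.7%, and poorer than gene-body sites without a run, at 46.3%.

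Members had moderate scores. Their median DMSO MACS score was 65.2 and the highest 994, and 254 (6.06%) reached 100, against 10.6% of all common sites. Gene-body sites without a run had a median score of 64.1, but 38 of the 339 reached 100. The 95th percentile of their score was 155, against 103 for members. Their median width was narrower, 308 bp against 426 bp.

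With IWR-1, QESEQ called 1515 members (36.2%, 34.7 to 37.6%), against 37% of all common sites. The second MACS list held a call at 929 members (22.2%, 20.9 to 23.5%), against 25.8% of all common sites. Both lists called 647 (15.4%) and neither called 2392 (57.1%), against 18.4% and 55.6% of all common sites. The share in the second MACS list moved with the score, from 14.2% of members in the lowest of 5 equal groups to 41.1% in the highest, and to 53.1% at scores of at least 100. The common sites that were not members had 37.6% and 28.2%, so members differed from them by −1.43 points in QESEQ (−3.31 to 0.458) and by −6.05 points in the second MACS list (−7.72 to −4.36). The calls are counts from 1 library with no test between treatments. Where a call was made it mostly held the run. The longest run lay within the IWR-1 QESEQ interval in 1326 of 1515 members (87.5%) and within the peak of the second MACS list in 844 of 929 (90.9%). These calls were counted because they overlap intervals that hold the run by the rule. High shares are therefore partly set in advance, and no base share was measured. Of all windows, which were chosen to touch no common site, 39 (0.530%) had an IWR-1 QESEQ call and 8 (0.109%) a call in the second MACS list. Of the 91 windows with a run of at least 20 bases, 10 (11.0%) and 3 (3.30%) did.

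Against sites without a run, the result depended on the list and on the score. QESEQ called 95 of the 339 gene-body sites without a run (28.0%, 23.3 to 33.1%), 8.14 points fewer than members (2.93 to 12.9). In the second MACS list the classes were alike, 22.2% and 22.1%, with a difference of 0.0532 points (−4.82 to 4.34). Across 5 equal groups of score, from the lowest to the highest, the QESEQ difference was 6.15, 11.9, 14.2, 16.2 and −8.76 points. Its interval held 0 in the lowest and in the highest group. Among sites with a score of at least 100 it had the opposite sign to that of all sites. There 127 of 254 members (50%) and 26 of 38 sites without a run (68.4%) were called, −18.4 points (−32.3 to −1.41). These sites without a run had a higher median score than the members, 144 against 111. When only runs in the central 200 bp counted, 3259 members were left, and sites with a run elsewhere joined those without one. The QESEQ difference was then 0.0233 points (−3.11 to 3.10), which is not a comparison with sites that lack a run. In intervals of 250 to 500 bp it was 7.19 points (0.720 to 12.9).

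Members had fewer calls than run-bearing sites at promoters. Within 1 kb of a transcript start 42.6% of run-bearing sites were called by QESEQ and 28.8% in the second MACS list, which put members at −6.47 points (−9.996 to −3.00) and −6.61 points (−9.86 to −3.51). Intergenic sites with a run had 33.3% and 23.6%. Against these members differed by 2.82 points in QESEQ (0.782 to 4.85) and by −1.44 in the second MACS list (−3.24 to 0.352).

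Run length separated the members. From 7 to 9 bases through 10 to 14, 15 to 19, 20 to 24, 25 to 29, 30 to 34 and 35 to 39 to 40 or more, the IWR-1 QESEQ share was 28.0, 27.9, 28.8, 32.4, 37.3, 40.1, 40.9 and 48.4%. In the second MACS list it was 19.6, 16.3, 16.2, 16.1, 18.8, 24.1, 33.2 and 52.9%. Below 20 bases neither list showed a trend, and above it both rose. Members with a run of at least 30 exceeded those with a run under 20 by 14 points in QESEQ (9.53 to 18.3) and by 17.0 points in the second MACS list (13.0 to 20.7).

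**Figure D5:**
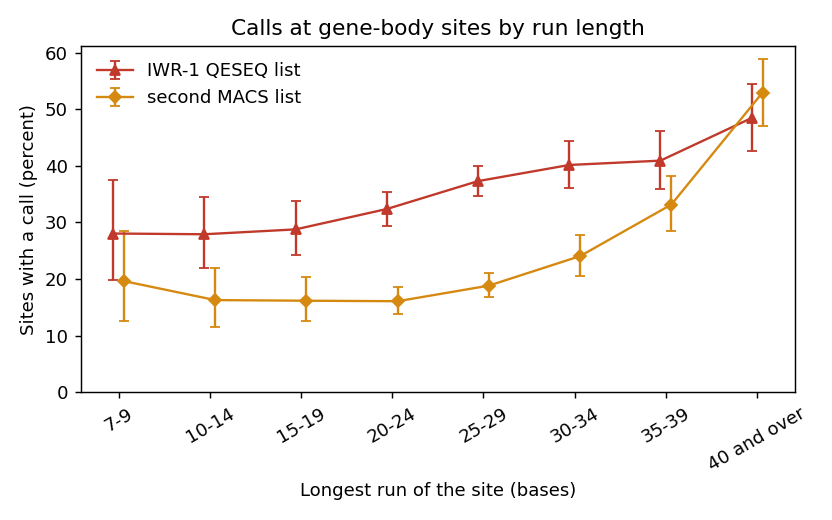
Percent of members with a call in the IWR-1 QESEQ list and in the second MACS list (vertical axis) by length of the longest run in bases (horizontal axis), with 95% exact binomial intervals. The QESEQ share goes from 28.0% to 48.4%, and the share of the second MACS list goes from 19.6% to 52.9%.

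The median DMSO score over the same classes of run length was 65.4, 64.6, 63.1, 63.2, 64.1, 67.6, 70.0 and 76.9, so it was 63.1 to 65.4 in all classes below 30 bases and higher for longer runs. In 5 equal groups of score, taken over all common sites, QESEQ called 26.9, 33.4, 36.1, 40.8 and 47.0% of members from the lowest to the highest. Within these groups the difference between runs of at least 30 and under 20 was 9.56, 15.3, 9.84, 5.41 and 20.2 points. It was positive in all 5, and its interval held 0 in the fourth (−5.23 to 15.5). In the second MACS list it was 14.9, 10.6, 10.1, 9.65 and 21.2 points, again with 0 in the interval of the fourth (−0.331 to 18.5). Intergenic sites with a run also had a positive difference, 9.11 points in QESEQ (4.87 to 13.2) and 19.4 in the second MACS list (15.5 to 23.0). Whether these differ from the values of members was not tested.

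Differences by other features of members were smaller or had wide intervals. The QESEQ share with the A on the sense strand differed from that with the A on the antisense strand by −1.65 points (−4.66 to 1.38). Members with a B1 sequence were called more often than those without, by 4.61 points in QESEQ (1.6 to 7.63) and 4.49 in the second MACS list (1.88 to 7.15). Members in 3′ UTRs differed from those in introns by 5.97 points in QESEQ (−2.76 to 15.2), and those in protein-coding from those in lincRNA genes by −0.175 points (−5.98 to 5.30). Of these differences only that of the B1 sequence had an interval without 0. In smaller groups the QESEQ share was 47.1% of the 70 members in noncoding exons (35.1 to 59.4%), 29.3% of the 82 in antisense genes (19.7 to 40.4%) and 25.8% of the 66 in processed transcripts (15.8 to 38.0%).

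At the thresholds of the rule, sites just inside and just outside had similar scores. Gene-body sites whose longest run was 6 bases numbered 55, with a median score of 66.8, 16 calls by QESEQ (29.1%) and 11 in the second MACS list (20%). Those with 7 bases numbered 47, with a median score of 65.8, 11 calls (23.4%) and 7 (14.9%), where all members had 36.2% and 22.2%. By distance, run-bearing sites 800 to 1000 bp from a transcript start numbered 106, with a median score of 64.7, 47 calls by QESEQ (44.3%) and 24 in the second MACS list (22.6%). At 1000 to 1200 bp there were 95, with a score of 64.5, 39 calls (41.1%) and 21 (22.1%).

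The highest scores belonged to a few sites. Gm44511, a predicted protein-coding gene, held the top 2, both in intron 3 of its main transcript. The site at chr6:128802644-128803333 had a score of 994 and a run of only 9 bases on the antisense strand. The other, at chr6:128798381-128799786, had a score of 736, a run of 34 bases on the sense strand, and lay 171 bp from a RefSeq transcript start. Next came intron 1 of Dsp, the gene of the desmosomal protein desmoplakin (chr13:38155081-38156202), with a score of 597 and a run of 13 antisense bases. All 3 were called in both IWR-1 lists. The interval centre was to the 5′ side of the run in all 3, by offsets of −27.5, −313 and −194.5 bp, where members had a median of 31 bp. Outside runs 17.3, 22.9 and 9.47% of the bases were masked, below the median of members, 35%. The 22.9% of the second Gm44511 site was above the lower quartile of members, 18.4%.

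The rest of the 10 had scores below 200 and mostly long runs, and not all are described here. Rbx1, a RING subunit of cullin ubiquitin ligases (score 177, run 27), the antisense gene Gm26850 (173, run 47) and Trim50, a tripartite-motif ubiquitin ligase (163, run 29), had a call only in the second MACS list. Dnah2, an axonemal dynein heavy chain (157, run 16), had a call only by QESEQ and lay 169 bp from a RefSeq transcript start. The lincRNA gene Gm11924 (167, run 45) and Sprr2a2, which encodes a small proline-rich protein of epithelia (162, run 26), had both. All of the 10 top sites had at least 1 IWR-1 call, against 42.9% of all members. These 10 were picked by score, and calls rose with the score: of members with a score of at least 100, 29.1% had no call. All 10 were in introns, as were 94.8% of all members.

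Some strong sites had no IWR-1 call. Of 254 members with a score of at least 100, 74 (29.1%) were in neither list and 82 (32.3%) in both, against 8 and 19 of the 38 gene-body sites without a run at such scores, and 55.6% and 18.4% of all common sites. The highest without a call were in the lincRNA gene Gm34276 (score 143, run 30), Hif3a, a hypoxia-inducible factor subunit (141, run 25), 4930402H24Rik (138, run 33), Mrtfb, a coactivator of serum response factor (136, run 29), and Tfpi, an inhibitor of coagulation (134, run 7). All 5 were intronic. Tfpi held the shortest run the rule allows, in an interval that was 97.5% masked.

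The longest runs were also intronic. Grm7, a glutamate receptor gene, held a run of 60 bases in intron 1 (score 116) and B3glct, a glucosyltransferase gene, one of 60 bases in intron 4 (98.6), both called in both IWR-1 lists. Sorcs1, a sortilin-family receptor gene, held 57 bases in intron 1 (138) with a call only in the second MACS list. Rabgap1l, a regulator of Rab GTPases, held 57 bases in intron 13 (70.5) with no call. Pik3c2g, a lipid kinase gene, held 56 bases (90.8) and was called in both. The lincRNA gene Gm30667 tied with it at 56 bases (55.6) and was also called in both.

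The 5 genes with the most members had models of 734 to 4435 kb. Fgfr2, a receptor of fibroblast growth factors, had 18, but its annotated model spans 2961 kb, of which the main transcript of 102 kb held 3, and 10 of the 18 also lay in another gene. Gm20388, a read-through model of 4435 kb, had 13, of which 11 lay in another gene too. Iqschfp, a read-through of 734 kb, had 8, all within another gene. Kcnip4, a potassium channel-interacting protein gene of 1135 kb, had 8, with 2 in the main transcript. Cdh13, a cadherin gene of 1041 kb and the first by name of 4 genes with 7, had all of them in the main transcript. In the order named, QESEQ with IWR-1 called 8, 6, 5, 2 and 2 members of these genes, and the second MACS list 2, 4, 2, 1 and 2. Of all members 36.2% and 22.2% were called.

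Genes of BMP and Smad signalling held members more often than genes at large, and they were longer. Of 38 on the list, 14 held at least 1 (36.8%, 21.8 to 54.0%), with a median gene length of 61.4 kb. All protein-coding genes had 12.9%, with a median of 17.4 kb. Those in the length groups with medians of 36.4 and 110 kb had 15.4 and 38.4%, and no comparison with genes of like length was made. The 14 genes were the receptors and co-receptors Acvr1, Acvr2a, Bmpr1a, Bmpr1b, Bmpr2, Tgfbr3 and Eng, the ligands Bmp5 and Bmp6, the antagonist Grem1, the signal transducer Smad3, the ubiquitin ligases Smurf1 and Smurf2, which mark Smads and receptors for degradation, and the Smad-binding repressor Zeb2. All genes with a member are named for each list, beyond the rule for named sites. Their 22 members were all intronic, as 94.8% of all members were. QESEQ called 10 of the 22 and the second MACS list 9, against 36.2% and 22.2% of all members.

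The strongest of these, in intron 10 of Bmpr2 (chr1:59860022-59860588), had a score of 90.7 and a run of 28 antisense bases, and was called only in the second MACS list. The other Bmpr2 member, in intron 1, had a score of 79.8 and no call. The single member in Eng, which encodes endoglin, a co-receptor of endothelium and early blood, was in intron 8, with a score of 55.0, a run of 19 sense bases, 86.5% masked sequence outside runs and no call. Bmp5 and Bmp6 each had a member in intron 1 that both IWR-1 lists called, with scores of 77.5 and 75.9.

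Of 52 genes of Wnt signalling, 12 held a member (23.1%, 12.5 to 36.8%), an interval that held the 12.9% of all protein-coding genes, with a median gene length of 31.7 kb. These were the receptors and co-receptors Fzd3, Lrp5, Lrp6 and Lgr5, the receptor-degrading ligase Rnf43, Apc, Gsk3b and Btrc of β-catenin turnover, and the transcription factors Lef1, Tcf7, Tcf7l1 and Tcf7l2. QESEQ called 8 of their 14 members and the second MACS list 7, where all members had 36.2% and 22.2%. These are few sites, and no difference from other members was tested for any list.

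Of 26 genes of blood and endothelium, 5 held a member (19.2%, 6.55 to 39.4%): Tek and Flt1, receptors of endothelium, Pecam1, an adhesion molecule, and the blood transcription factors Runx1 and Spi1. QESEQ called 6 of their 7 members and the second MACS list 3, beside the same 36.2% and 22.2%. The Spi1 site (chr2:91088673-91089105) had a score of 106, a run of 34 bases and a call only by QESEQ. The A was on the antisense strand of the gene at 6 of the 7, and on the sense strand at 1 of those in Flt1. Of all members in genes of a single strand, 39.6% had it on the sense strand.

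Of 27 cardiac genes 4 held a member (14.8%, 4.19 to 33.7%): the transcription factors Gata4, Mef2c and Tbx20 and the calcium release channel gene Ryr2. The A was on the sense strand in Gata4, Mef2c and Ryr2 and on the antisense strand in Tbx20. Of their 5 members QESEQ called 1, the Tbx20 site in intron 6 (chr9:24745127-24745531; score 71.0, run 31), and the second MACS list 1, in Mef2c, beside 36.2% and 22.2% of all members. Of 23 primitive streak and mesoderm genes only Snai1, a repressor that drives the epithelial-to-mesenchymal transition, held a member (4.35%), 1502 bp from its transcript start in intron 2 (chr2:167539496-167539897), with a score of 67.2, a run of 28 bases and both calls. Of 20 pluripotency genes 2 did (10%), Esrrb, an orphan nuclear receptor, and Tet1, an enzyme that oxidises methylcytosine. The Esrrb site in intron 1 (chr12:86437377-86437778) had a score of 87.9, a run of 27 sense bases and a QESEQ call. Both members in Tet1 had the A on the antisense strand and no call in either list, so QESEQ called 1 of the 3 and the second MACS list 0. Against 12.9% of all protein-coding genes, the order of the lists followed their median gene lengths only in part, from 61.4 kb for BMP and 41.9 kb for blood and endothelium to 31.7, 23.9, 13.9 and 6.00 kb for Wnt, cardiac, pluripotency and streak genes.

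Gene families varied as well. Zinc finger genes named Zfp held a member in 40 of 394 (10.2%, median length 17.4 kb), and Tmem genes, of transmembrane proteins, in 23 of 242 (9.50%, 14.7 kb). Solute carriers (Slc) had 55 of 371 (14.8%, 28.8 kb) and Rab GTPases 11 of 69 (15.9%, 25.2 kb). Kinesins (Kif) had 13 of 39 (33.3%, 48.2 kb), collagens (Col) 11 of 45 (24.4%, 114 kb) and chromodomain helicases (Chd) 5 of 10 (50%, 63.6 kb). The chromatin genes of the Smarc and Kmt2 families had 3 of 13 and 1 of 5. Share and length did not always go together, since collagens were the longest family. The exact intervals for Zfp, Tmem, Slc, Rab, Smarc and Kmt2 held the 12.9% of all protein-coding genes, and those for Kif, Chd and Col began at 19.1, 18.7 and 12.9%. That base is not matched for length. Protein-coding genes in the length groups with medians of 36.4 and 110 kb had 15.4 and 38.4%. Collagens were thus below the share of the longest group, and no family was compared with genes of like length.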

How the data were processed

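Smad1 ChIP and input chromatin were sequenced with 1 library each per treatment. The authors used CASAVA 1.8, aligned reads with Bowtie2 2.1.0 to mm10, and called peaks with MACS 1.0.1 and QESEQ. The 5 deposited lists give positions, and for MACS a score per peak, which is the deposited score of the authors. The minimum overlap behind the common list is not stated. A site took the highest score among DMSO MACS peaks that overlap it. Depth per peak is unknown, since the lists give no read counts.

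Genes were those of GENCODE M21, sequence and soft-masking those of NCBI's GRCm38, and tRNA genes its 403 nuclear ones. A site with runs of equal length took the one nearest its centre. A centre in several genes took a protein-coding gene first, then the longest. An overlap of 1 bp was enough. Intervals are at 95%, by the exact Clopper-Pearson method for shares, and differences between classes of sites carry Newcombe intervals. Windows lie near members and are not independent of them. No test was made between treatments, and no paired analysis was possible because each treatment had 1 ChIP library and no replicate pairs.

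Sites were named by rule: the 10 highest scores, the 5 longest runs, the 5 genes with most members, the 5 highest scores of at least 100 with calls in both IWR-1 lists and the 5 with calls in neither, and in each gene list those of at least 100 or else the highest. Of the sites so named, 3 are not reported here. Members and lists were chosen with earlier results of these data known. Alternatives changed the length and place of the run, the distance from transcript starts, the score, the overlap, the calls counted and the sites per gene. Alternatives on the main transcript, RefSeq starts and interval width were chosen after seeing the data. Code used pysam 0.24.0, scipy 1.17.1, numpy 2.4.6 and matplotlib 3.10.9 under Python 3.11.15, and was tested on simulated data.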

Additional observations from a re-analysis of the deposited data

How the results depend on the processing

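Of 107 alternatives, 80 left the result on the same side and within its interval, or the count within 1.5-fold. The difference in QESEQ calls between members and the remaining gene-body sites did not hold in 2. It was −18.4 points at scores of at least 100 and 0.0233 points with the run wholly inside the central 200 bp. In the latter setting the remaining sites included run-bearing ones, so it is not a comparison with sites that lack a run. The causes were not tested. At scores of at least 100, fewer sites (254) were left, with 95.7% in introns, 38.0% with the A on the sense strand, a median run of 30 bases, 42.9% masked, 86.6% in protein-coding genes, 50% called by QESEQ and 53.1% in the second MACS list. With the run in the central 200 bp, the median run was 25 bases, the distance to the centre 37.5 bp and the masked share 42.3%. At 5 kb from transcript starts, 96.5% were in introns, 38.8% of bases masked and 34.6% of members called by QESEQ. With 1 member per gene, 41.1% of bases were masked and 86.4% of members were in protein-coding genes. The distance was 46 bp from the centre of the MACS peak, and the masked share 35% without the runs. An overlap of 50% of each interval gave 29.6% called by QESEQ and 19% in the second MACS list. Calls in both IWR-1 lists gave 15.4%, and in either 42.9%. Of the 30 alternatives chosen after seeing the data, intervals of 250 to 500 bp gave a distance of 44.5 bp and a masked share of 42.1%, and the main transcript 87% in protein-coding genes. A call depends on sequencing depth, which the lists do not give, so a site without a call is not a site without Smad1.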
